A study of Gossypium hirsutum and Gossypium barbadense with 16 samples.

Results

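The genes described here are *G. hirsutum* genes without an entry in the deposited table that matches *G. hirsutum* genes with their *G. barbadense* orthologs, and whose level was lower in fiber cells than in the epidermal cells under them at 2 days post anthesis (DPA). They are called unpaired for that reason alone; whether they have a partner in either species was not examined here. A gene was taken when its lowest epidermal library of GhTM-1 at 2 DPA was over 5 FPKM and at least 2 times its highest fiber library of the same line and stage. FPKM is the number of fragments scaled by transcript length and by how many fragments a library had mapped, so it is a level set within its own library. The members were thus chosen by their GhTM-1 fiber and epidermal values at 2 DPA. They were 394 genes of 75376 in the tables, of which 22862 were unpaired, and their levels were then read in every *G. hirsutum* group.

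The study captured cells from the surface of cotton ovules by laser microdissection and sequenced their polyA RNA. Fiber cells of 2 DPA came from GhTM-1, a wild-type *G. hirsutum* line, and were cut off where they protruded from the ovule. Epidermal cells were taken from the mutant GhMD17 at 2 DPA and at 0 DPA, and from GhTM-1 at 2 DPA (a second cut under the fibers) and at 0 DPA. GhMD17 is a natural mutant of *G. hirsutum* background with naked seeds and no visible fiber initials, so it differs from GhTM-1 in its whole genotype, and GhTM-1 epidermal cells at 0 DPA include those that initiate fibers. Each of these 5 groups had 2 biological replicates, which makes 10 of the 16 libraries of the series. The sources do not say from how many plants or ovules a replicate was cut.

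A cotton fiber is a single epidermal cell of the outer integument of the ovule that initiates around anthesis and then elongates without dividing. The cells left between and under the fibers stay in the epidermal layer and go on to form part of the seed coat. *G. hirsutum* is an allotetraploid that carries an A and a D subgenome, and its gene IDs name the subgenome and chromosome of each gene.

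The files and the reference table used here do not pair these gene IDs with names, with 0 IDs in common, so no function is given for any gene and the tissue labels could not be checked against marker genes. The libraries held between 43136 and 51156 genes over 0 FPKM. Pearson correlations of replicates on log2(FPKM + 1) lay between 0.947 and 0.959 over 57469 genes, and between 0.879 and 0.971 over the 394 genes. The files hold FPKM and no counts, so the depth behind each value is unknown, and precision is limited by having 2 libraries a group. In bulk samples such as these, fewer cells of a type and less RNA per cell cannot be told apart.

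The values that chose the genes are a description and were not tested. Of 4242 unpaired genes over the epidermal minimum, 394 met the rule (9.29%), and of 15016 paired genes over the same minimum, 1364 met it (9.08%), so being reduced in fiber was about as frequent with an ortholog entry as without one. The opposite rule, with fiber at least 2 times the epidermal cells, took 59 of 3760 unpaired genes over the fiber minimum (1.57%). It took 126 of 12909 paired genes over that minimum (0.976%), a smaller share. In 13 of the 394 genes both fiber libraries were listed at 0. In the other 381 the ratio of the lowest epidermal to the highest fiber library ran between 2.01 and 74.9 with a median of 2.90, and 205 were under 3 while 26 were at least 10. The genes nearest to the limit had ratios of 2.01, 2.01 and 2.02 inside it and of 2.00, 1.99 and 1.99 outside it. Nearest to the minimum, the lowest epidermal libraries were 5.004, 5.04 and 5.05 FPKM inside and 4.97, 4.96 and 4.96 FPKM outside. Many of the 394 genes thus sat close to the limits, and neighbours just outside them had nearly the same values.

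**Figure D1:**
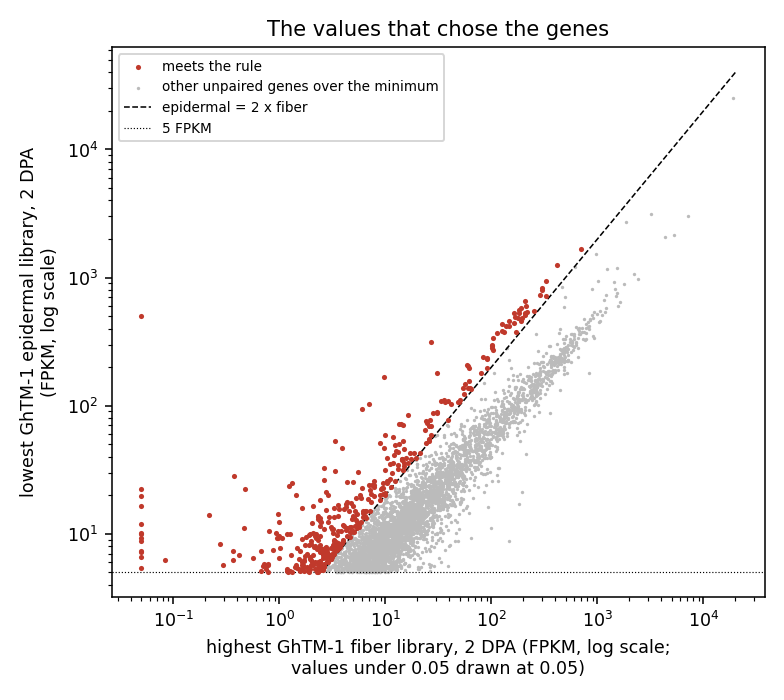
Each point is 1 unpaired gene, with its highest GhTM-1 fiber library on the x axis and its lowest GhTM-1 epidermal library on the y axis, both at 2 DPA in FPKM on log scales. The 394 genes that met the rule lie on and above the dashed line at a ratio of 2, and above 100 FPKM there are 63 of them, with 7 other unpaired genes at ratios of 1.5 to 2.

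The median of the 394 genes was lowest in fiber, where the rule had asked for a low level, and highest in the fiberless mutant at 2 DPA. Their median level was 3.28 and 2.88 FPKM in the fiber libraries, 22.3 and 22.3 FPKM in GhMD17 epidermal cells at 2 DPA, 17.4 and 18.7 FPKM in GhMD17 at 0 DPA, 15.4 and 15.0 FPKM in GhTM-1 epidermal cells at 2 DPA, and 14.5 and 14.5 FPKM in GhTM-1 at 0 DPA. No library of these medians overlapped with that of another group, and the smallest step was between the epidermal cells of GhTM-1 at 2 and 0 DPA. The same medians over all 4242 unpaired genes over the minimum were 13.7 and 13.8 FPKM in fiber and between 15.1 and 16.1 FPKM in the 8 epidermal libraries. The paired genes reduced by the same rule had medians of 3.12 and 2.82 FPKM in fiber. Their medians were likewise highest in GhMD17 at 2 DPA, at 19.2 and 18.5 FPKM. Together the 394 genes held 1.07% and 0.938% of all FPKM in the fiber libraries, against 5.57% and 6.16% in GhMD17 at 2 DPA, 3.60% and 3.76% in GhMD17 at 0 DPA, 4.11% and 4.10% in GhTM-1 epidermal cells at 2 DPA, and 4.64% and 3.30% in GhTM-1 at 0 DPA. The GhTM-1 share at 0 DPA differed between its replicates by more than the shares of any other group.

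**Figure D2:**
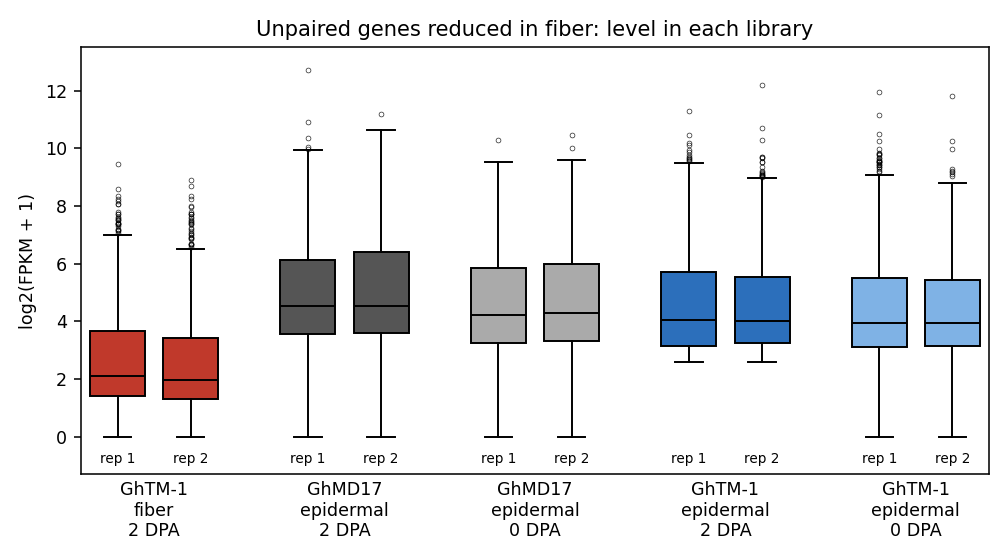
Boxes show the level of the 394 genes in each of 10 libraries as log2(FPKM + 1), with the median, the quartiles, whiskers to 1.5 times the box and single genes beyond. The fiber boxes, with medians of 3.28 and 2.88 FPKM, lie below the 8 epidermal boxes, and those of GhMD17 at 2 DPA, with medians of 22.3 FPKM, lie highest.

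Epidermal groups that the rule did not use also stood above the fiber libraries, which the rule did use, so these counts are given without a test. In GhMD17 at 2 DPA, 383 of the 394 genes had both libraries above both fiber libraries (97.2%; 43.2% of all 57469 genes), 1 had both below and 347 were at least 2 times higher. In GhMD17 at 0 DPA these counts were 363 above (92.1%; 41.4% of all genes), 1 below and 277 at least 2 times higher. In GhTM-1 at 0 DPA they were 377 above (95.7%; 39.1% of all genes), 0 below and 270 at least 2 times higher. Among all unpaired genes over the minimum, at least 2 times higher than fiber were 12.8%, 13.0% and 9.15% in the same 3 groups. The low fiber level was thus seen against each epidermal group, including that of the mutant. The paired genes reduced by the same rule had close to the same shares, with 97.3%, 95.3% and 95.2% above both fiber libraries.

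When each gene was sorted by the group that held its highest mean, 220 of the 394 had it in GhMD17 at 2 DPA (55.8%), 91 in GhMD17 at 0 DPA (23.1%), 41 had it in the epidermal cells of GhTM-1 at 2 DPA (10.4%), 42 in those of 0 DPA (10.7%) and 0 in fiber. The shares over all unpaired genes over the minimum were 19.4%, 24.2%, 8.30%, 17.6% and 30.5%. By the rule none of the 394 genes could be highest in fiber, so that 0 was fixed in advance. The shares of the other groups are therefore not like for like between the sets. The epidermal cells of GhTM-1 at 2 DPA, which the rule set against fiber, were seldom the highest group in either set, at 10.4% and 8.30%. The median log2 difference at 2 DPA, GhMD17 minus GhTM-1 epidermal cells, was 0.38 over the 394 genes and positive in 313 of them (79.4%). It was -0.02 over the unpaired genes over the minimum. Over the paired genes reduced by the same rule it was 0.42 and positive in 78.7%, so it was not particular to unpaired genes. Because the rule used those GhTM-1 libraries, this difference was not tested. In GhTM-1 epidermal cells the median difference of 2 minus 0 DPA was 0.12, also a description.

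**Figure D3:**
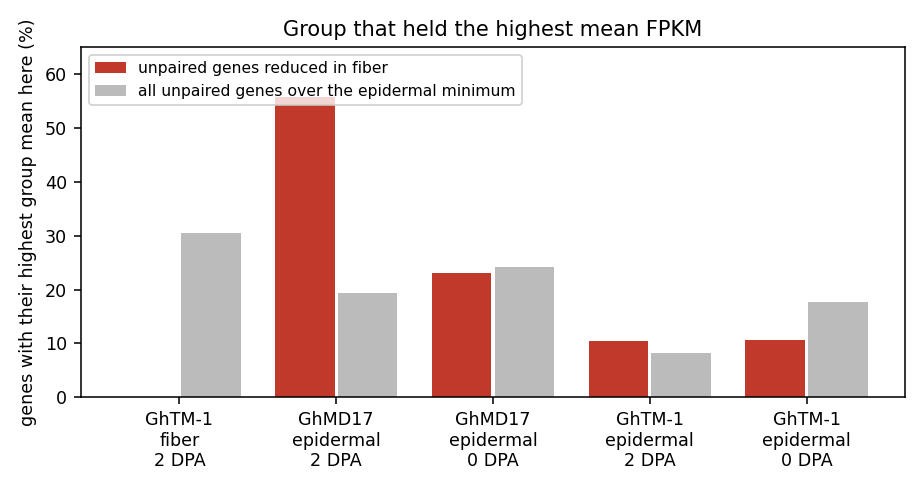
Bars give the percent of genes whose highest group mean in FPKM was in the group named under them, in red for the 394 genes and in gray for the 4242 unpaired genes over the epidermal minimum. GhMD17 at 2 DPA held 55.8% of the 394 genes and 19.4% of the 4242. Fiber held 0% and 30.5%, where the 0% was fixed by the rule, so the other bars are not like for like.

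Among epidermal cells at 0 DPA, when fibers initiate in GhTM-1 and not in GhMD17, more of the genes were called higher in the mutant than lower, whereas over all genes more were called lower. With limma on log2(FPKM + 1) and calls at an adjusted p under 0.05, a mean over 5 FPKM and a ratio over 1.5, 21 of the 394 genes were higher in GhMD17 than in GhTM-1 (5.33%; 0.894% of all 57469 genes tested) and 8 were lower (2.03%; 1.85% of all genes). Of the 4242 unpaired genes over the epidermal minimum, which are closer to them in level, 1.25% were called higher and 6.32% lower. The spread behind these calls also drew on libraries of the rule, so the shares are not strictly like for like between the sets. All 394 genes entered the test, and 365 were not called. The 21 higher genes had log2 differences between 0.77 and 1.96 and GhMD17 means between 18.6 and 174 FPKM. The median difference over the 394 genes was 0.19, against 0.03 over all genes tested and -0.04 over the unpaired genes over the minimum. The SD of this median over the 4 pairs of libraries was 0.08, but the pairs share libraries and are not independent. Both GhMD17 libraries lay above both GhTM-1 libraries in 150 genes (24.6% of all genes did) and below them in 64 (18.2% of all genes). At an unadjusted P under 0.01 with the same other limits, 39 were higher (2.34% of all genes) and 13 lower (3.5% of all genes). Of the paired genes reduced by the same rule, 6.96% were called higher and 1.25% lower. Without any 1 of the 4 libraries compared, 4 to 10 were higher and 1 to 3 lower, where the lone library of a group was assumed to vary like the other groups, and the 4 libraries fitted alone gave 5 and 3. Leaving out libraries outside the comparison also lowered the counts, with 11 higher when replicate 1 of the epidermal GhTM-1 cells of 2 DPA was left out and 4 lower without either GhMD17 library of 2 DPA.

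Gohir.D04G155700 had 180 and 155 FPKM in GhMD17 at 0 DPA, against 44.5 and 40.1 FPKM in GhTM-1 at 0 DPA. The difference was 1.96 on the log2 scale (SE 0.18, limma adjusted p = 0.00197), and the call held under all 18 other settings, with adjusted p between 0.000574 and 0.0256. It had 3.01 and 3.35 FPKM in fiber, 211 and 152 FPKM in GhMD17 at 2 DPA, and 56.1 and 52.8 FPKM in the GhTM-1 epidermal cells of 2 DPA. Its groups thus formed 3 separate levels, with the mutant above the wild-type epidermal cells and fiber far below both. Gohir.D05G318600 had 35.3 and 33.4 FPKM in GhMD17 at 0 DPA, against 11.7 and 5.52 FPKM in GhTM-1 at 0 DPA. This difference was also 1.96 (SE 0.33, limma adjusted p = 0.0231), but 7 of 18 settings lost the call and adjusted p reached 0.126. Its fiber libraries had 1.27 and 1.15 FPKM and its GhTM-1 epidermal libraries at 2 DPA 5.10 and 6.58 FPKM, just over the minimum.

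Among the 8 lower genes, Gohir.D01G179700 had 5.23 and 6.96 FPKM in GhMD17 at 0 DPA, against 84.8 and 61.7 FPKM in GhTM-1 at 0 DPA. The difference was -3.38 (SE 0.52, limma adjusted p = 0.0159), and it lost the call when any 1 of these 4 libraries was left out, with adjusted p up to 0.11. Its level was also low in GhMD17 at 2 DPA, at 14.9 and 6.90 FPKM, and in fiber, at 7.26 and 3.47 FPKM, while GhTM-1 epidermal cells at 2 DPA had 52.1 and 20.5 FPKM. This gene therefore had the fiber and the mutant on the same low side. Gohir.A06G126102 was listed at 0 in both GhMD17 libraries at 0 DPA, against 119 and 14.5 FPKM in GhTM-1 at 0 DPA (limma adjusted p = 0.0168, up to 0.116 in other settings). It was also listed at 0 in both fiber libraries, but had 36.6 and 41.9 FPKM in GhMD17 at 2 DPA and 57.3 and 22.4 FPKM in GhTM-1 epidermal cells at 2 DPA. The GhTM-1 replicates at 0 DPA were far apart, and no fold is given against a group listed at 0.

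In the epidermal cells of GhMD17, which form no fiber, the median of the genes was higher at 2 DPA than at 0 DPA, but few were called and their number changed with the setting. With the same test and limits, 7 of the 394 were higher at 2 DPA (1.78%; 0.129% of all genes) and 1 was lower (0.254%; 0.0679% of all genes). Of the 4242 unpaired genes over the epidermal minimum, which are closer to them in level, 0.306% were called higher and 0.0471% lower. Here too the spread drew on libraries of the rule, so these shares are not strictly like for like. Over the 394 genes the median log2 difference was 0.33 and 276 were positive. The median was 0 over all genes tested and -0.01 over the unpaired genes over the minimum. The SD of the 0.33 over the 4 pairs of libraries was 0.04, and these pairs too share libraries. Both libraries of 2 DPA lay above both of 0 DPA in 183 genes (16.8% of all genes) and below them in 51 (16.9% of all genes). At an unadjusted P under 0.01 with the other limits, 52 were higher (1.02% of all genes) and 10 lower (0.574% of all genes). Of the paired genes reduced by the same rule, 1.47% were called higher, with a median difference of 0.15. Leaving out any 1 of the 10 libraries left 0 to 4 higher calls, and 0 to 2 without a library of the groups compared, with the same assumption for a lone library, and limma on the 4 libraries alone gave 0 in each direction. This comparison shares the 0 DPA libraries of GhMD17 with the one before it, so their values are not independent, and no gene was called in both.

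Gohir.D02G199300 had 150 and 328 FPKM in GhMD17 at 2 DPA, against 25.2 and 28.5 FPKM in GhMD17 at 0 DPA. The difference was 3.01 (SE 0.42, limma adjusted p = 0.0427, between 0.0120 and 0.184 in other settings). Gohir.D11G320400 had 90.8 and 103 FPKM in GhMD17 at 2 DPA, against 17.7 and 19.7 FPKM at 0 DPA, a difference of 2.31 (SE 0.33, limma adjusted p = 0.0492, between 0.0154 and 0.192 in other settings). In both genes the GhTM-1 epidermal cells at 2 DPA lay between, with 59.2 and 96.2 FPKM for the first and 35.6 and 47.2 FPKM for the second. GhTM-1 at 0 DPA had 24.0 and 43.3 FPKM for the first and 14.2 and 30.2 FPKM for the second. The fiber values of the first, 26.1 and 26.7 FPKM, lay within its range at 0 DPA in each line. Those of the second, 10.4 and 14.9 FPKM, were below both GhMD17 libraries of 0 DPA and overlapped those of GhTM-1 at 0 DPA.

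Gohir.A06G129700, the gene that was lower, had 40.2 and 44.6 FPKM in GhMD17 at 2 DPA, against 149 and 189 FPKM in GhMD17 at 0 DPA. The difference was -1.96 (SE 0.28, limma adjusted p = 0.0492), and the call was lost in 11 of 18 settings, with adjusted p up to 0.224. It had 4.93 and 5.30 FPKM in fiber, 21.5 and 19.1 FPKM in GhTM-1 epidermal cells at 2 DPA, and 121 and 62.6 FPKM in GhTM-1 at 0 DPA. Values were thus lower at 2 DPA than at 0 DPA in the epidermal cells of both lines, of which only those of GhMD17 were tested.

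**Figure D4:**
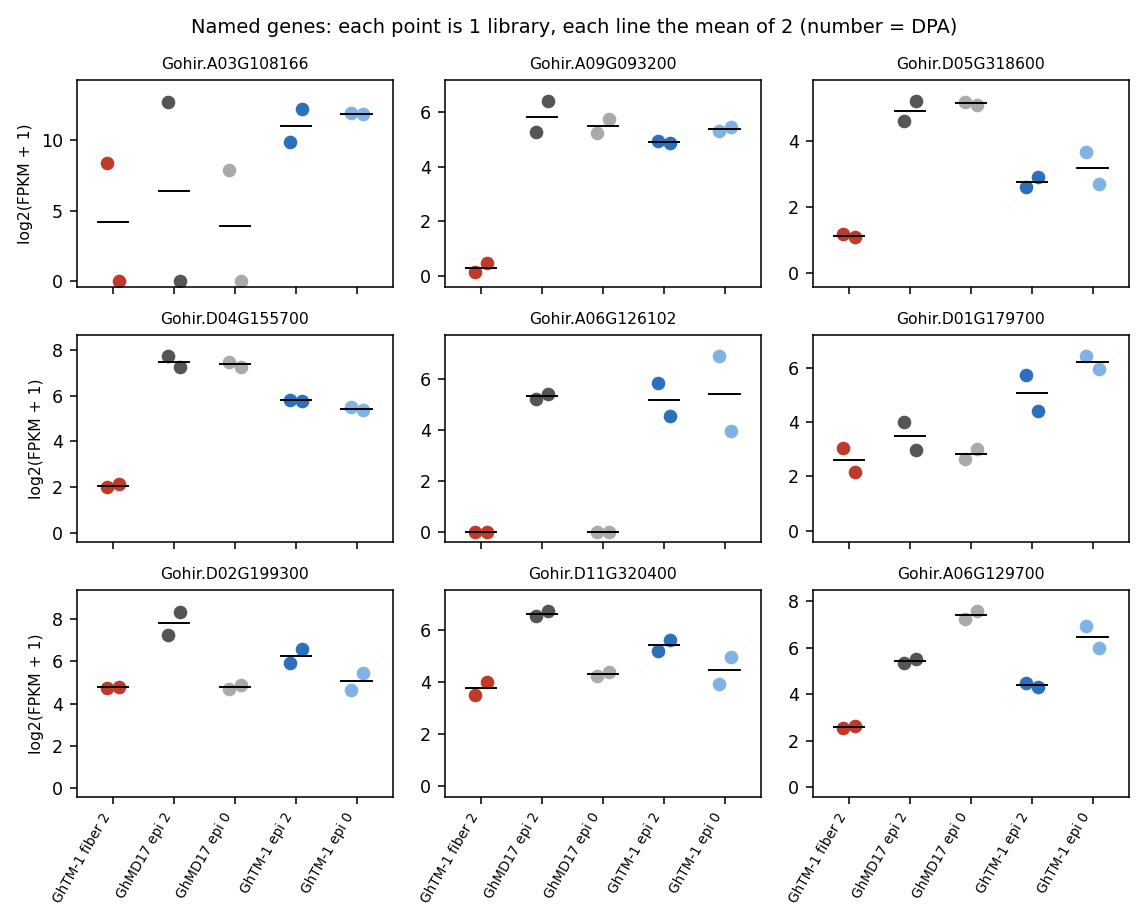
Each panel is 1 gene, each point 1 library and each line the mean of 2 libraries as log2(FPKM + 1), with the number in a group's name giving its DPA. Gohir.D04G155700 keeps its replicates close in every group, at 180 and 155 FPKM in GhMD17 against 44.5 and 40.1 FPKM in GhTM-1 at 0 DPA, while Gohir.A03G108166 has 3 libraries listed at 0 beside libraries of the same group at 327, 6781 and 234 FPKM.

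The genes were not alike at all levels, which was seen when they were split by their lowest GhTM-1 epidermal library at 2 DPA. The bounds of 10, 25 and 100 FPKM were chosen after the values were seen and use a library of the rule, so the bands are described and not tested. Up to 10 FPKM there were 156 genes, up to 25 FPKM 108, up to 100 FPKM 67, and over 100 FPKM 63. The 63 high genes were 14.2% of the 444 unpaired genes over 100 FPKM, against 9.71%, 7.95% and 8.05% in the lower bands from low to high. They had ratios of epidermal to fiber cells with quartiles of 2.46 and 3.07, closer together than in any lower band, although the highest ratio among them was 17.4. In the bands from low to high, 79, 49, 34 and 43 unpaired genes had a ratio of 2 to 3, against 117, 78, 23 and 7 with a ratio of 1.5 to 2. The range of 2 to 3 is wider than that of 1.5 to 2, so the counts within a band are not like for like. Even so, genes short of the limit outnumbered those past it in the bands up to 25 FPKM. Over 100 FPKM few genes lay just short of it.

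The median of the 63 high genes was 103 and 98.4 FPKM in fiber, 382 and 491 FPKM in GhMD17 at 2 DPA, 253 and 277 FPKM in GhMD17 at 0 DPA, 421 and 335 FPKM in GhTM-1 epidermal cells at 2 DPA, and 445 and 260 FPKM in GhTM-1 at 0 DPA. The replicates of GhTM-1 at 0 DPA lay far apart, with the median of its second library inside the range of GhMD17 at 0 DPA. In GhMD17 the median log2 difference of 2 minus 0 DPA was 0.95 over the 63 genes, positive in 61 of them, against 0.10 over all 444 unpaired genes at that level and 0.15, 0.24 and 0.30 over the genes of the lower bands. None of the 63 was called by limma in that comparison in either direction, and 6 had an unadjusted p under 0.01. At 0 DPA the median of GhMD17 minus GhTM-1 was -0.40 over the 63 genes, the opposite sign to the 0.28, 0.37 and 0.23 of the lower bands. All 444 unpaired genes at that level had a median of -0.70 in this comparison, and those of the lower bands had 0.07, 0.02 and -0.13. The median thus fell with level over unpaired genes as a whole too. In every band the chosen genes had a higher median than all unpaired genes of that band.

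**Figure D5:**
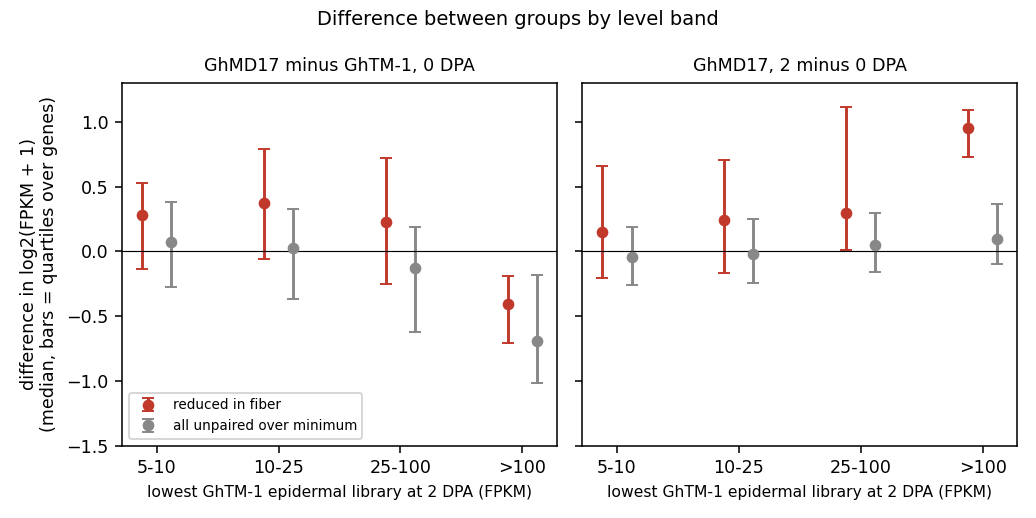
Points give the median difference in log2(FPKM + 1) and bars its quartiles over genes, in bands of the lowest GhTM-1 epidermal library at 2 DPA, in red for the 394 genes and in gray for the 4242 unpaired genes over the minimum. Over 100 FPKM the red point is at 0.95 and the gray at 0.10 for GhMD17 at 2 minus 0 DPA, and at -0.40 and -0.70 for GhMD17 minus GhTM-1 at 0 DPA.

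The gene with the highest mean in GhTM-1 epidermal cells at 2 DPA, Gohir.A03G108166, varied most between replicates. It had 327 and 0 FPKM in fiber, 6781 and 0 FPKM in GhMD17 at 2 DPA, 234 and 0 FPKM in GhMD17 at 0 DPA, 935 and 4676 FPKM in GhTM-1 epidermal cells at 2 DPA, and 3931 and 3631 FPKM in GhTM-1 at 0 DPA. Replicate 2 was thus listed at 0 in 3 groups where replicate 1 had the values above, so its level cannot be ranked across groups. Genes listed at 0 in a replicate whose partner was over 100 FPKM numbered 1 in fiber, 2 in GhMD17 at 2 DPA, 1 in GhMD17 at 0 DPA, 0 in GhTM-1 epidermal cells at 2 DPA and 2 in GhTM-1 at 0 DPA. The gene with the largest ratio, Gohir.A09G093200, had 0.107 and 0.374 FPKM in fiber, 37.5 and 83.5 FPKM in GhMD17 at 2 DPA, 36.2 and 53.3 FPKM in GhMD17 at 0 DPA, 29.7 and 28.0 FPKM in GhTM-1 epidermal cells at 2 DPA, and 38.6 and 43.2 FPKM in GhTM-1 at 0 DPA. All 8 epidermal libraries of this gene were far above both fiber libraries.

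Both subgenomes contributed. By their IDs, 188 of the 394 genes were on the A subgenome (47.7%), 203 on the D subgenome (51.5%) and 3 on scaffolds, against 49.4% and 50.0% of the unpaired genes over the minimum on A and D. Every chromosome held some, between 5 genes on D04 (3.68% of its unpaired genes over the minimum) and 24 on D05 (11.1%), with the largest share on D07 (22 genes, 13.3%). IDs that do not end in 00 were 16.5% of the 394 and 12.8% of the unpaired genes over the minimum.

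Some of the genes lay near each other in ID number, a feature looked at after the values were known and read as the order of IDs only, since no coordinates were used. Scaffold IDs were left out of this. For each gene, the other unpaired genes over the minimum within 500 in ID number on the same chromosome were taken as its neighbours, so that a gene can be counted for more than 1 of them. Of 342 such neighbours, 76 met the rule as well (22.2%), against 9.27% of the unpaired genes over the minimum on chromosomes. Among the paired genes reduced by the same rule the share was 9.88%, against 9.09%. There were 7 runs of 3 of the genes and 18 of 2, and the other 334 on chromosomes had none of the others within that distance. A run on D08 had median levels of 299 and 249 FPKM in fiber, 1053 and 1475 FPKM in GhMD17 at 2 DPA, 714 and 756 FPKM in GhMD17 at 0 DPA, 1170 and 826 FPKM in GhTM-1 epidermal cells at 2 DPA, and 1232 and 623 FPKM in GhTM-1 at 0 DPA. Further runs of 3 on A08, A09, A10 and D13 had medians over 100 FPKM in the epidermal cells of GhTM-1 at 2 DPA as well. Whether genes in these runs share reads with near-identical copies was not tested, so their levels are uncertain.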

How the data were processed

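LCM RNA-seq of 10 GhTM-1 and GhMD17 libraries was used. According to the methods and the processing notes, the authors mapped reads to the *G. hirsutum* TM-1 genome with TopHat2 2.1.1, handled them with SAMtools 1.5, kept unique reads and computed the deposited FPKM with Cufflinks 2.2.1, 1 column per library. Reads of copies that map to more than 1 place are missing from such values. The 52514 genes of the ortholog table had the same values, digit for digit, in the tables of each line. The table of *G. barbadense* genes was not used.

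Genes with an FPKM over 0 in any library (57469) were fitted on the log2(FPKM + 1) scale by limma 3.58.1 (R 4.3.3), using lmFit with 5 group means and eBayes with a trend. Folds of low genes are understated on that scale. The 2 comparisons were two-sided with Benjamini-Hochberg adjustment over all genes, and calls had an adjusted p under 0.05, a mean over 5 FPKM and a ratio over 1.5. The p-values set each difference against a spread pooled over the 2 replicates of all 5 groups and moderated across genes. They speak for these samples only. The fit was tried on simulated data with 200 changed genes, whose changes were set larger than most differences called here. It does not show how well smaller differences are found. Named genes were that with the highest mean, that with the largest ratio, and up to 2 of the largest called differences per direction without overlap. Members and lists were chosen with earlier results of these data known. Alternatives were another pseudocount, other filters and limits, an unadjusted P, the 4 libraries alone, rescaled libraries, a replicate block and leaving out each library. Plots used Python 3.11.15 and matplotlib 3.10.9.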

Additional observations from a re-analysis of the deposited data

How the results depend on the processing

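The medians over all 394 genes and the 7 named genes of the tested comparisons kept their direction under each alternative run; values by level band and of groups the rule used were not rerun. The number of genes was 394, and 619 and 189 at ratios of 1.5 and 3, 904 and 238 at minimums of 1 and 10 FPKM, 830 with means, and 535 to 724 without 1 of the 4 libraries (724 and 711 without GhTM-1 epidermal replicate 1 and 2). For GhMD17 against GhTM-1 at 0 DPA, 21 higher and 8 lower became 39 and 13 at an unadjusted P under 0.01, 5 and 3 with limma on the 4 libraries alone, and 4 to 18 and 1 to 6 leaving out 1 of the 10 libraries. The fewest were left without GhMD17 replicate 2 of 0 DPA (4 and 1), and without GhTM-1 epidermal replicate 1 of 2 DPA, not compared here, 11 were higher. For GhMD17 at 2 against 0 DPA, 7 higher and 1 lower became 52 and 10 at an unadjusted P under 0.01, 0 and 0 on the 4 libraries alone, and 0 to 4 and 0 to 1 leaving out 1 library. They were 0 and 0 without any GhTM-1 library of 2 DPA or without GhMD17 replicate 1 of 0 DPA. A filter at a mean over 1 FPKM gave 13 higher, and rescaled libraries gave 0 lower. Medians stayed between 0.15 and 0.22 at 0 DPA and between 0.32 and 0.40 in GhMD17.

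Replicate numbers were not taken as pairs, since deviations of same-numbered libraries correlated between -0.10 and 0.12. With the replicate block, 19 were higher and 8 lower at 0 DPA, and 9 higher and 0 lower in GhMD17 at 2 against 0 DPA.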
